A study of Mus musculus with 778 samples.

Results

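Solute carriers are membrane proteins that move small molecules such as sugars, amino acids, nucleotides, metals, vitamins and inorganic ions across the plasma membrane and the membranes of organelles. Their genes are named *Slc*, followed by a family number and a letter with a member number. A growing oocyte sits in a follicle and is fed in part by the granulosa cells around it through gap junctions. It oxidises pyruvate rather than glucose, and the family holds the carriers for both. Oocytes are also known for glycine and taurine uptake, for bicarbonate and proton exchange that sets their pH, and for the build-up of zinc late in growth.

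The genes described here are the *Slc* rows that reached 10 UMIs per 1000000 (CPM) in any of 5 oocyte stages. The table held 23201 genes, of which 376 were *Slc* rows, and 67 of these reached the limit in all 5 stages and 56 in some of them, which makes up the members. A UMI is a random tag by which copies of 1 cDNA molecule are counted once. For CPM, the UMIs that a gene had in all cells of a stage were added up and set against the total of that stage, so a level is a share of UMIs and not an amount per oocyte. The selection used the same stage levels that are given below, so these levels are a description and carry no test. Just outside the limit lay *Slc35a3* with at most 9.64 CPM, *Slc29a3* with 9.44 and *Slc25a40* with 9.29, and just inside it *Slc12a5* with 10.2, *Slc18a2* with 10.4 and *Slc9a8* with 10.5. Of the 253 rows below the limit, 34 had 0 UMIs in all cells and 219 had at least 1. Among all genes 37.4% reached 10 CPM in a stage, against 32.7% of the *Slc* rows. Members came from 36 of the 49 numbered families in the table. Symbols of 4 members, *Slc7a6os*, *Slc9a3r1*, *Slc9a3r2* and *Slc4a1ap*, are derived from carrier names although the proteins are regulators or partners and not carriers.

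Single oocytes were taken by hand from ovaries of wild-type ICR mice and sorted into stages by diameter. Non-growing oocytes (NGO, under 20 µm) came from mice 3 to 4 days old, and 3 growing stages (GO1, 30 to 45 µm; GO2, 50 to 55 µm; GO3, 60 to 65 µm) and fully-grown oocytes (FGO, over 70 µm) from mice 3 to 4 weeks old. Stage and age cannot be told apart in any comparison with NGO. The table held 46 NGO, 51 GO1, 26 GO2, 44 GO3 and 56 FGO cells with stage totals between 24976634 and 64311908 UMIs. In GO1 80.4% of the UMIs came from the 10 deepest cells and in GO2 73.2%, so the sums of these stages rest on few oocytes. Cell names in the table do not tell which library a cell came from, so a stage was treated as 1 sample, and no test between stages was possible. Intervals are at 95%, cover counting error only and leave out the spread between oocytes and libraries. A gene was called higher or lower in a stage when the 2 levels differed by 2-fold or more, with 10 CPM or more in the higher one.

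Defining markers of oocytes were abundant in every stage, with summed levels of 34900, 18606, 20401, 20710 and 25877 CPM from NGO to FGO over 10 genes. Of these oocyte markers 2 were called higher and 5 lower in GO1 than in NGO, beside 20.3% and 25.3% of all genes that reached 10 CPM. The 10 granulosa markers summed to 15.8 CPM in NGO and to 44.1, 36.4, 35.3 and 20.5 CPM in the stages from GO1 to FGO. Of them 2 reached 10 CPM, *Cyp19a1* with 16.3 and *Nr5a2* with 14.5 CPM in GO1, and both were called higher in GO1 than in NGO. None of the 10 was at 0 in all stages, and *Amh* stayed at or under 0.112 CPM. The 7 stromal and thecal markers summed to 8.06 CPM in NGO and to 0.462 to 0.721 in the other stages, and the 6 blood and endothelial markers to 4.68 to 48.95 CPM, nearly all from *Pecam1*, with *Hba-a1* and *Hbb-b1* at 0. The part of these cells in the changes of carrier genes from NGO to GO1 was not tested.

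The largest differences between stages lay between NGO and GO1. Of the members, 24 (19.5%) were called higher in GO1 and 42 (34.1%) lower, beside 20.3% and 25.3% of the 8671 genes of the table that reached 10 CPM. The share of members called higher was thus close to that of all genes. The remaining 57 members met the limit in neither direction. The median log2 ratio of GO1 to NGO was -0.22 over the members and -0.13 over all genes. Scaling by TMM moved both medians up, to -0.06 and 0.03, and gave 28 higher and 37 lower. When the CPM of single cells was averaged, so that each oocyte counted alike, 19 were higher and 47 lower, and without the 10 deepest cells of each stage 19 and 57. The members called higher made up 36.4% of the changed ones in the sums, 43.1% with TMM factors, 38.1% with DESeq2 size factors, 40.3% with 26 cells per stage, 28.8% as the mean over cells, 28.4% in cells thinned to 20000 UMIs and 25% without the deepest cells. No member called in the sums was called in the opposite direction in any of 6 alternatives.

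**Figure D1:**
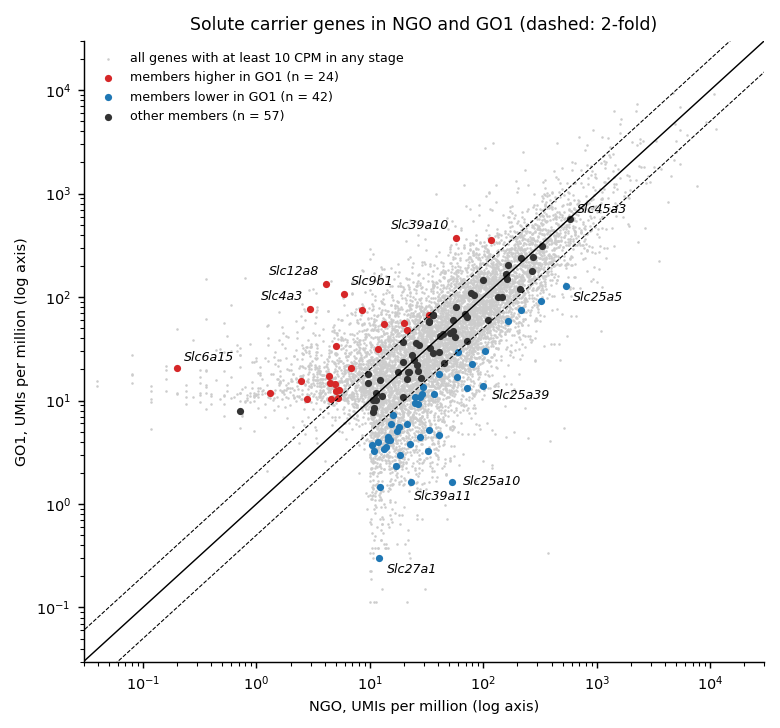
CPM in NGO (horizontal log axis) against CPM in GO1 (vertical log axis) for all genes that reached 10 CPM (grey) and for the members, of which 24 were called higher in GO1 (red) and 42 lower (blue); the solid line marks equal levels and the dashed lines 2-fold. *Slc25a5* went from 532 to 126.9 CPM and *Slc39a10* from 57.7 to 375 CPM, and *Slc45a3* lies on the line with 579 and 571 CPM.

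The 8 largest ratios among the members called higher in GO1 belonged to genes of several classes. *Slc6a15* (NCBIM37, the mm9 build, chromosome 10, 102830477 to 102882011, plus strand), a carrier of neutral amino acids, had 0.198, 20.6, 14.97, 9.39 and 1.31 CPM in the 5 stages from NGO to FGO. Its NGO level rests on 5 UMIs, and the ratio of 103.6 has a counting interval of 44.1 to 320. *Slc12a8* (chromosome 16, 33517414 to 33664221, plus strand), a member of the cation-chloride cotransporter family, had 4.13, 132.4, 136.8, 99.9 and 56.7 CPM in the same order, a 32.1-fold difference (26.4 to 39.4). It was high in the 3 growing stages and in between in FGO. *Slc4a3* (chromosome 1, 75542841 to 75558747, plus strand), a chloride-bicarbonate exchanger, had 2.98, 77.04, 53.2, 38.6 and 31.7 CPM and was 25.9-fold higher in GO1 (20.6 to 33.04). *Slc9b1*, a sodium-proton exchanger known from sperm, had 5.87, 105.9, 76.4, 37.2 and 8.85 CPM and was 18.03-fold higher (15.3 to 21.4). Unlike *Slc4a3*, it was again near its NGO level in FGO, with a ratio of FGO to NGO of 1.51 against 10.6.

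*Slc7a1*, a carrier of arginine and lysine, went from 1.31 to 11.9 CPM, a 9.10-fold difference with a counting interval of 6.35 to 13.5. *Slc23a2* (chromosome 2, 131878232 to 131970844, minus strand), the sodium-dependent carrier of vitamin C, had 8.45, 75.4, 43.5, 42.4 and 29.5 CPM and was 8.92-fold higher in GO1 (7.74 to 10.3). *Slc25a13* (chromosome 6, 5991219 to 6167173, minus strand), the aspartate-glutamate carrier citrin of the inner mitochondrial membrane, had 5.04, 33.7, 40.7, 30.4 and 8.10 CPM and was 6.69-fold higher (5.55 to 8.12). *Slc39a10* (chromosome 1, 46864389 to 46910891, minus strand), a zinc importer, had 57.7, 375, 345, 345 and 251 CPM and was 6.50-fold higher (6.15 to 6.87). Of these 8 genes it had by far the most UMIs, 10021 in GO1. All 8 were also called higher when the CPM was averaged over cells, and *Slc6a15* gave no value without the deepest cells or in thinned cells.

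The members called lower in GO1 with the largest ratios also came from several classes. *Slc27a1* (chromosome 8, 74092826 to 74110607, plus strand), which takes up long-chain fatty acids, had 12.1, 0.299, 1.04, 1.004 and 2.32 CPM, and the 40.6-fold difference (20.4 to 94.9) rests on 8 UMIs in GO1. *Slc25a10* (chromosome 11, 120353154 to 120360501, plus strand), the mitochondrial dicarboxylate carrier, had 52.7, 1.64, 2.68, 4.48 and 9.67 CPM and was 32.04-fold lower in GO1 (23.7 to 44.3). Its level was higher in each later stage than in the one before, and in FGO it was still 5.45-fold below NGO. Zinc carriers of intracellular membranes or the cell surface followed, *Slc39a11* with 22.9 and 1.64 CPM (13.9-fold, 10.2 to 19.3), *Slc30a9* with 32.7 and 3.29 CPM (9.95-fold, 7.98 to 12.5) and *Slc39a1* with 40.6 and 4.67 CPM (8.69-fold, 7.21 to 10.5). *Slc25a39*, a mitochondrial carrier needed for glutathione import, went from 99.7 to 13.8 CPM, or 7.21-fold (6.46 to 8.06). *Slc24a2*, a potassium-dependent sodium-calcium exchanger, went from 16.9 to 2.35 CPM, or 7.16-fold (5.49 to 9.49). These 7 were called lower as the mean over cells too. *Slc39a11* overlaps genes on the other strand, and whether counting used strand is not given in the sources used here.

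Promoter sequence is shown for 2 members that were higher and 2 that were lower in GO1. They had the largest ratios in each direction among called members with a single RefSeq window and were not chosen by CpG content. Each is the 250 bases before the start of the gene in RefSeq (GRCm38.p6), written 5′ to 3′ along the gene, with CpG dinucleotides in capitals. For *Slc9b1* the start could not be compared with a GENCODE vM1 transcript, since none has that symbol, and for the other 3 a transcript matched the window.
Slc4a3, chr1:75546212-75546461, plus strand: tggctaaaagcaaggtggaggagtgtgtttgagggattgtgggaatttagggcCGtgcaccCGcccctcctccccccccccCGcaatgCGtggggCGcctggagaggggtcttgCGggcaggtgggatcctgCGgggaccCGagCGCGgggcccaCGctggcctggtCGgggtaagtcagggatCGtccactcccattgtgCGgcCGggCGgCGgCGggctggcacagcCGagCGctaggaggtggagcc
Slc9b1, chr3:135347779-135348028, plus strand: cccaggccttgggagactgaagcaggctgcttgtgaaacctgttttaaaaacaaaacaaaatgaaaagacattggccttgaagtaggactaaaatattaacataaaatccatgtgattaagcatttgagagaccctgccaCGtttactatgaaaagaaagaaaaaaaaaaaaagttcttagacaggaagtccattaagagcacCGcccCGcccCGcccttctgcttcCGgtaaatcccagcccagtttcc
Slc25a10, chr11:120491587-120491836, plus strand: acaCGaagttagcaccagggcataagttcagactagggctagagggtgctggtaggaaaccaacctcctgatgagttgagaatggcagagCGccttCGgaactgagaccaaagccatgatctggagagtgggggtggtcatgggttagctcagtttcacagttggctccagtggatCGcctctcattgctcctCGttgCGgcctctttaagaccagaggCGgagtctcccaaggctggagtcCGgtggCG
Slc30a9, chr5:67306705-67306954, plus strand: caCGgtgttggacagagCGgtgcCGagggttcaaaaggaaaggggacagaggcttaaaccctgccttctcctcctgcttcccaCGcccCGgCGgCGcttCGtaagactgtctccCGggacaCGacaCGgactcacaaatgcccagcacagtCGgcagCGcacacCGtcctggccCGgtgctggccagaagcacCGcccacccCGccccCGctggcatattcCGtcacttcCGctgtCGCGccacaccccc

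These 250 bases held 20 CpG for *Slc4a3* and 5 for *Slc9b1*, both higher in GO1, and 9 for *Slc25a10* and 22 for *Slc30a9*, both lower, so a promoter rich or poor in CpG occurred on either side. RefSeq windows of 250 bases before to 50 after the start were found for 98 of the members. The median ratio of observed to expected CpG was 0.677 over the 20 members called higher in GO1 that had a window, 0.676 over the 36 called lower, and 0.676 over all 98, below the median of 0.791 over 6901 genes. Median GC content was 63%, 61.5%, 60.8% and 60.7% in the same order. The members higher and lower in GO1 had nearly the same median, and its quartiles overlapped.

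Of 5 motifs searched on both strands, the E-box CANNTG, which reads the same on either strand, occurred in 18 of the 20 windows of members called higher (90%) and in 24 of the 36 of members called lower (66.7%). It was in 74.5% of all member windows, in 63.6% of the windows of all genes and in 64.8% of those of all genes called higher in GO1. The ETS site CCGGAAG was in 4 of 20 (20%) and 9 of 36 (25%), against 20.9% of all genes. The Nobox element TAATTG was in 2 windows of each kind, 10% and 5.56%, against 5.16% of all genes. The TATA box TATAAA was in 0 of 20 and 1 of 36 (2.78%), against 6.77%, and GCATGC, the core of the Nrf1 site, in 1 of 20 (5%) and 1 of 36 (2.78%), against 11.4%. None of these strings contains another, and a match says only that the letters are present.

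**Figure D2:**
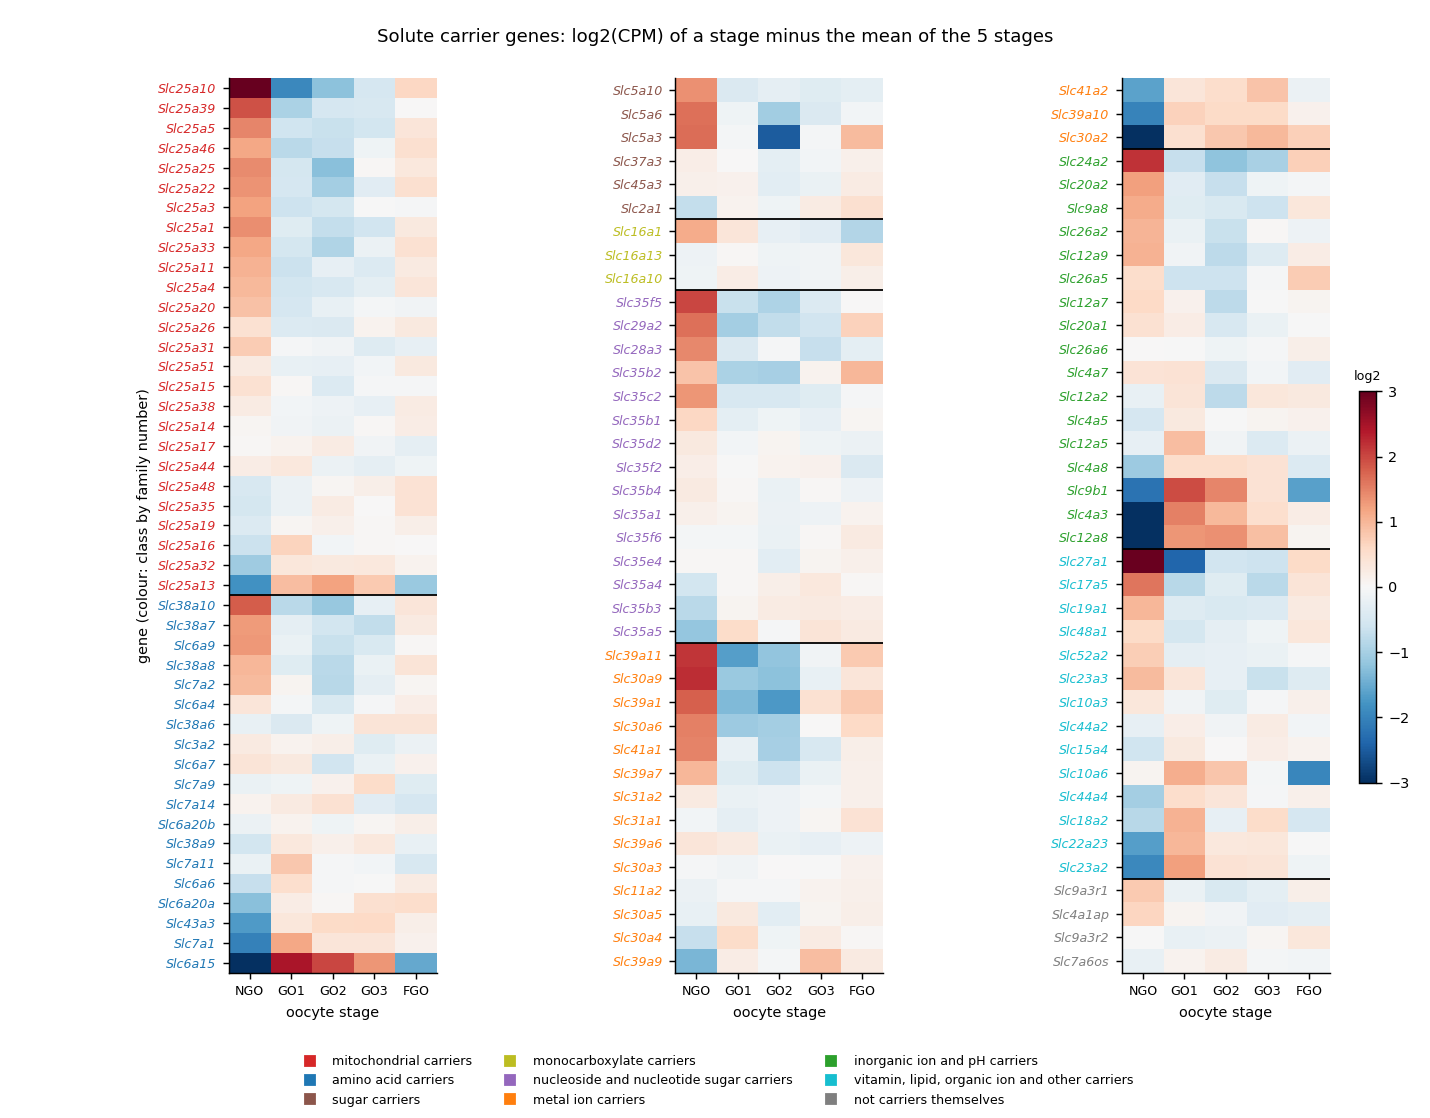
Each row is 1 member (2 are left out), grouped by class (label colour, black lines between classes), and each column a stage; colour gives log2(CPM) minus the gene's mean over the 5 stages, limited to 3 in either direction. In NGO 62 members had their highest level and 36 their lowest.

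NGO thus held the highest level of 62 members (50.4%), not far from the 45.7% of all genes. GO1 held the highest level of 25 members (20.3%, against 23.8%), GO2 of 6 (4.88%, against 9.25%), GO3 of 10 (8.13%, against 9.39%) and FGO of 20 (16.3%, against 11.9%). The lowest level fell in GO2 for 45 members (36.6%, against 31.9%) and in NGO for 36 (29.3%, against 36.2%). Each member had at least 1 UMI in every stage. At 10 CPM in only 1 stage were 28 members, 21 of them in NGO, and their highest level lies in that stage by the selection. Matching counts over all genes were not made, so these numbers do not set the members apart. The members together took 0.708% of all UMIs in NGO and 0.639%, 0.587%, 0.589% and 0.620% in the stages from GO1 to FGO. The lower total in GO1 than in NGO, a ratio of 0.902, ranged from 0.698 to 1.01 over the alternatives and was turned by TMM scaling.

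Members were grouped by the substrate of their family, using the family number alone. For every class below, the counts of members called in GO1 stand beside 20.3% higher and 25.3% lower over all genes. No class was tested against these shares. The class of mitochondrial carriers, all of family 25, was the one with the highest summed level in NGO. Its 26 members summed to 2476, 1341, 1364, 1443 and 1736 CPM from NGO to FGO. In GO1 12 were called lower and 3 higher, and the median log2 ratio was -0.83, against -0.22 over all members. The ratio of the sums, 0.542, ranged from 0.333 to 0.605 over the alternatives, and the median was negative in every one of them. The highest level lay in NGO for 15 of the 26 (57.7%) and in FGO for 6.

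Abundant in this class were the carriers that exchange ADP for ATP across the inner mitochondrial membrane and the phosphate carrier. *Slc25a5* (ANT2; chromosome X, 34335646 to 34338802, plus strand) had 532, 126.9, 121.2, 131.7 and 247 CPM and was 4.19-fold lower in GO1 than in NGO (4.03 to 4.35). In single oocytes its CPM ran from 241 over a median of 532 to 859 in NGO and from 0 over 66.5 to 192.2 in GO1, so the 2 stages did not overlap. In FGO it ran from 48.7 over 188.2 to 556. *Slc25a4* (ANT1; chromosome 8, 47292151 to 47296638, minus strand) had levels of 216, 75.7, 79.2, 89.4 and 141.2 CPM and was 2.86-fold lower in GO1 (2.72 to 3.01). *Slc25a31* (ANT4, known from germ cells; chromosome 3, 40512777 to 40529515, plus strand) had 209, 120.3, 114.9, 95.4 and 105.1 CPM, 1.74-fold lower in GO1 (1.67 to 1.82) and below the 2-fold limit. Thus the 3 ADP/ATP carriers differed to unequal extents, and *Slc25a31* was the one without a higher level in FGO than in GO1. These genes are close in sequence, and how reads matching several genes were counted is not given in the sources used here. *Slc25a3* (chromosome 10, 90579319 to 90586804, minus strand), which imports phosphate for ATP synthesis, had 321, 91.8, 97.3, 138.7 and 136.2 CPM and was 3.50-fold lower in GO1 (3.34 to 3.66).

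Other family 25 members were called in either direction. Among those lower in GO1, *Slc25a1*, which exports citrate, went from 103.02 to 30.4 CPM (3.39-fold), *Slc25a11*, which exchanges oxoglutarate and malate, from 36.9 to 11.4 (3.23-fold), *Slc25a22*, a glutamate carrier, from 21.5 to 5.91 (3.64-fold) and *Slc25a20*, which imports acylcarnitines, from 15.4 to 5.94 (2.59-fold). The other 4 called lower were *Slc25a25*, *Slc25a33*, *Slc25a46* and *Slc25a39*. Higher in GO1 were citrin, *Slc25a32*, a carrier of folate and FAD with 11.8 and 31.3 CPM (2.65-fold, 2.32 to 3.03), and *Slc25a16* with 5.0 and 12.4 CPM. For *Slc25a32* the difference was below 2-fold as the mean over cells (log2 ratio 0.95), without the deepest cells (0.73) and in thinned cells (0.99). *Slc25a15*, the ornithine carrier, with 135.7 and 101.1 CPM, and *Slc25a26*, which imports S-adenosylmethionine, with 109.7 and 60.3 CPM, stayed within 2-fold. *Slc25a48* (chromosome 13, 56539716 to 56575600, plus strand) had levels of 164.2, 202, 239, 261 and 308 CPM in the sums, but averaged over cells its levels were 162.5 CPM in NGO and 83.5 in GO1, so the direction of its difference turned with the weight given to deep cells.

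**Figure D3:**
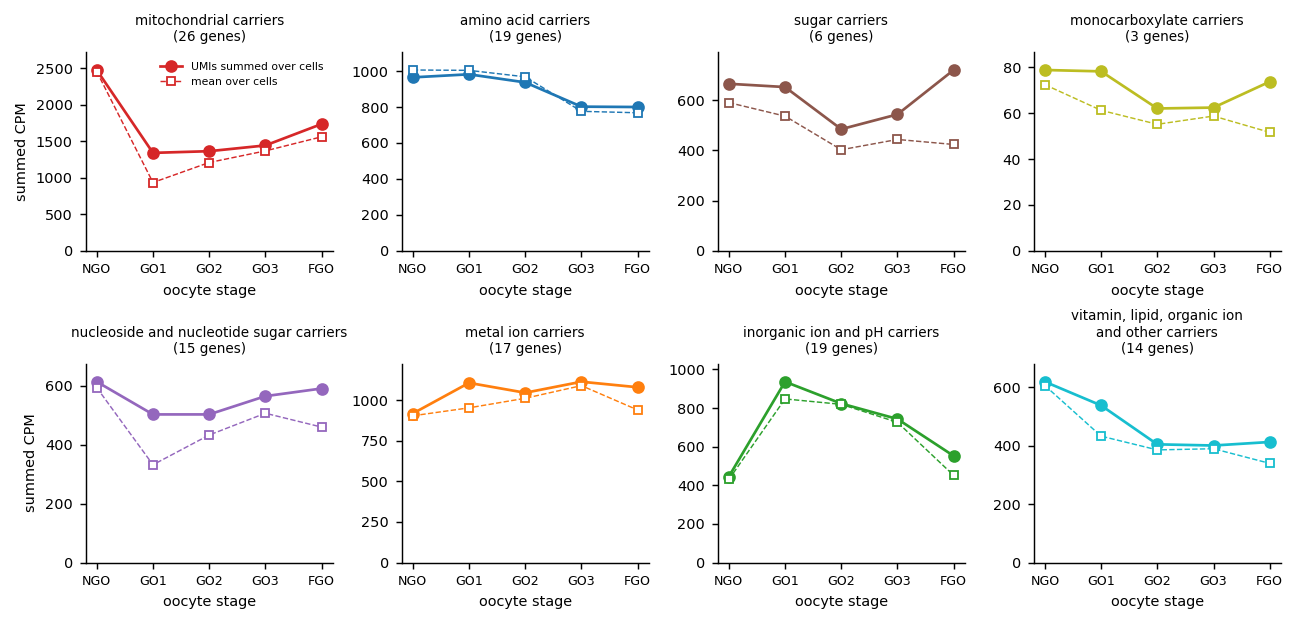
Summed CPM of the members of each class (vertical axes from 0, on scales of their own) in the 5 stages, from UMIs summed over cells (filled circles) and as the mean over cells (open squares). Mitochondrial carriers went from 2476 to 1341 CPM between NGO and GO1 and carriers of inorganic ions from 445 to 936 CPM, in the same direction by both measures.

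The class of inorganic ion and pH carriers moved the other way in its sum. Its 19 members summed to 445, 936, 823, 743 and 552 CPM, a ratio of GO1 to NGO of 2.10 that ranged from 1.93 to 2.35 over the alternatives. By number of genes the class was split, with 5 called higher and 7 lower, or 7 and 4 with 26 cells per stage, and a median log2 ratio of -0.02, whose sign depended on the setting. The sum was carried by *Slc4a8*, *Slc12a8*, *Slc9b1* and *Slc4a3*. *Slc4a8* (chromosome 15, 100592178 to 100654399, plus strand), which exchanges sodium and bicarbonate for chloride, had 116.04, 353, 358, 332 and 187.1 CPM and was 3.04-fold higher in GO1 (2.92 to 3.17). Single NGO cells ran from 39.9 to 245 CPM with a median of 99.9, and GO1 cells from 23.6 to 631 with a median of 362. Both groups overlapped, and the lower quartile of GO1, 250 CPM, lay above the highest NGO cell.

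Of the pH regulators that oocytes are known to use, *Slc4a2*, another chloride-bicarbonate exchanger, was no member, with at most 6.27 CPM. The bicarbonate carriers *Slc4a7*, with 24.6 and 24.7 CPM in NGO and GO1, and *Slc4a5*, with 33.1 and 57.7 CPM, were within 2-fold. Among those lower in GO1 were *Slc9a8*, an exchanger of organelles (10.5 and 3.74 CPM), the phosphate carrier *Slc20a2* (11.8 and 4.0 CPM), the sulfate carrier *Slc26a2* (25.1 and 10.8 CPM), *Slc26a5* (15.9 and 7.18 CPM), *Slc12a9* (40.5 and 18.1 CPM) and *Slc24a2*. The chloride-importing cotransporter *Slc12a2* had 9.68, 14.8, 6.57, 14.5 and 13.9 CPM and the chloride-extruding *Slc12a5* had 4.56, 10.2, 5.005, 4.05 and 4.76 CPM.

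**Figure D4:**
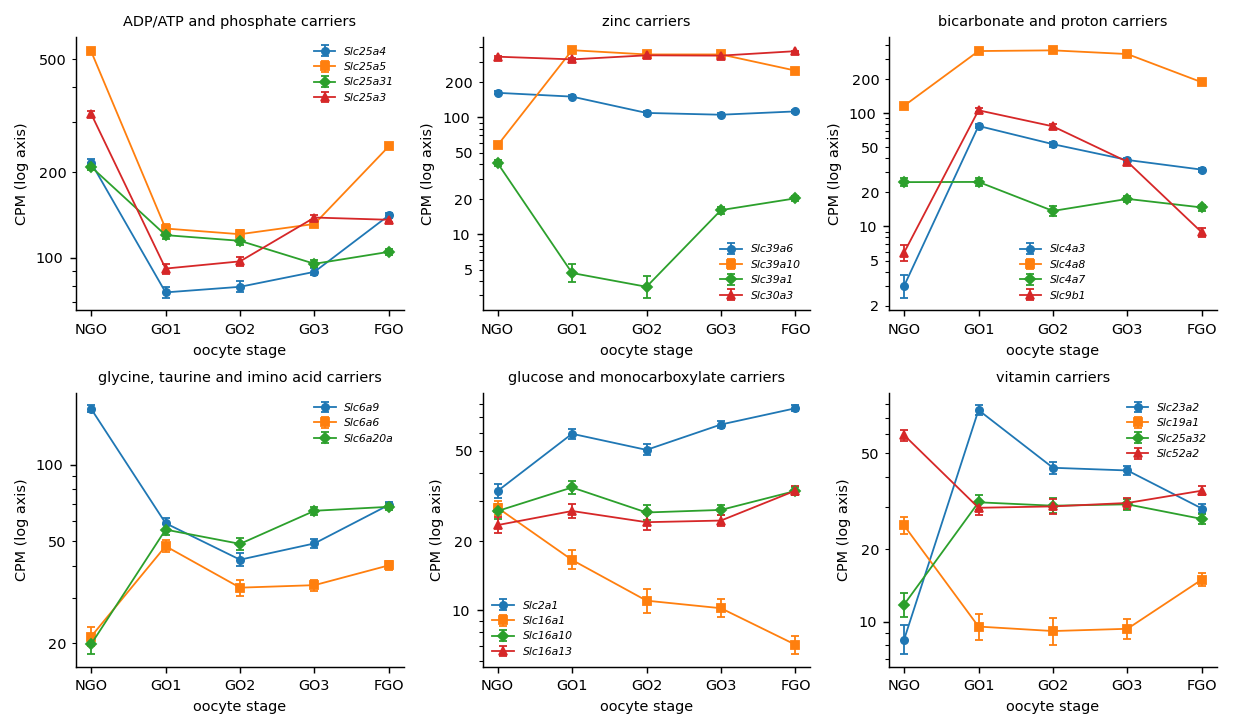
CPM (log axes) in the 5 stages for members grouped by related substrates or, as for *Slc16a10*, by family number. Bars are exact Poisson intervals at 95%, which cover counting error only. Within the zinc panel *Slc39a10* went from 57.7 to 375 CPM between NGO and GO1 while *Slc39a1* went from 40.6 to 4.67 CPM and *Slc30a3* from 330 to 313 CPM.

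Among the 17 metal ion carriers 4 were called higher in GO1 and 6 lower, and their sum was 919, 1108, 1047, 1115 and 1081 CPM. The ratio of GO1 to NGO, 1.21, stayed between 1.05 and 1.35 in the alternatives. Zinc carriers fell on both sides. The importers *Slc39a10* and *Slc39a6*, which are known to act together at the oocyte surface, differed in course, since *Slc39a6* had 162.04, 150.4, 109.1, 105.3 and 112.4 CPM. *Slc30a3* (chromosome 5, 31388479 to 31395988, minus strand), which loads zinc into vesicles, had 330, 313, 339, 337 and 368 CPM in the sums and 321, 144.5, 278, 299 and 257 CPM as the mean over cells, so that it was called lower in GO1 only when each oocyte counted alike, without the deepest cells, or in thinned cells. *Slc39a1* was the only zinc carrier called in a later step, from 3.56 CPM in GO2 to 16.1 in GO3. *Slc30a5*, a zinc carrier of the Golgi, had 25.3, 35.7, 23.7, 30.99 and 32.9 CPM, and *Slc39a9* had 6.87 and 20.6 CPM in NGO and GO1. *Slc39a7* of the endoplasmic reticulum had 27.7 and 10.8 CPM and *Slc30a6* of the Golgi 22.7 and 3.78 CPM, both lower in GO1.

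*Slc30a2*, a zinc exporter, had 0.714 CPM in NGO and 7.89 in GO1, 11.04-fold more, but did not reach 10 CPM there and was not called. Iron and copper carriers differed less in the sums. *Slc11a2*, which imports iron, had 54.5 to 68.1 CPM in all stages, and the copper carriers *Slc31a1* and *Slc31a2* had 44.9 to 72.9 and 41.1 to 56.1 CPM. Their medians over cells were lower in GO1 than in NGO. These were 54.1 CPM in NGO and 35.05 in GO1 for *Slc11a2*, 49.4 and 39.8 for *Slc31a1*, and 55.9 and 16.5 for *Slc31a2*. The magnesium carriers of family 41 diverged, *Slc41a1* from 18.1 to 5.49 CPM and *Slc41a2* from 4.37 to 17.2 CPM between NGO and GO1.

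The 19 amino acid carriers summed to 965, 982, 937, 802 and 800 CPM, with 6 called higher and 4 lower in GO1, or 4 and 5 without the deepest cells. Their median log2 ratio was 0.07 and changed sign in some settings, and the ratio of sums, 1.02, ranged from 0.931 to 1.14. Carriers of organic osmolytes differed in direction. *Slc6a9* (GLYT1; chromosome 4, 117507111 to 117547803, plus strand), the glycine carrier by which oocytes and early embryos help control their volume, had 165.2, 58.9, 42.4, 49.1 and 69.5 CPM and was 2.80-fold lower in GO1 (2.64 to 2.97). Single NGO cells had 75.7 to 230 CPM with a median of 160.1, and GO1 cells 0 to 188.1 with a median of 24.6, an overlap at the top of GO1. *Slc6a9* overlaps *B4galt2* and *Ccdc24* on the other strand, and its counts are uncertain to that extent. *Slc6a6* (chromosome 6, 91634061 to 91709057, plus strand), the taurine carrier, had 21.2, 47.9, 32.95, 33.7 and 40.3 CPM and was 2.26-fold higher (2.04 to 2.50). This difference was below 2-fold as the mean over cells (log2 ratio 0.89), without the deepest cells (0.67) and in thinned cells (0.82). *Slc6a20a* (chromosome 9, 123545240 to 123588003, minus strand), which carries proline and other imino acids, had 19.8, 55.6, 48.9, 65.9 and 68.3 CPM, 2.81-fold higher in GO1 (2.53 to 3.11). Its near copy *Slc6a20b* had 19.4, 23.5, 19.98, 22.9 and 24.8 CPM, and the split of reads between them is uncertain.

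*Slc3a2* (chromosome 19, 8781372 to 8797859, minus strand), the heavy chain that brings family 7 light chains to the cell surface, had 273, 245, 256, 176.9 and 203 CPM, within 2-fold in all steps. Of its light chains *Slc7a11*, which exchanges cystine for glutamate, was called higher in GO1 with 33.2, 66.6, 36.9, 36.03 and 27.1 CPM, a ratio of 2.01 near the limit. *Slc7a5* had at most 7.70 CPM and *Slc7a6* at most 2.29, and neither was a member. *Slc7a14* (chromosome 3, 31101832 to 31209300, minus strand), a lysosomal member, had 215, 238, 274, 158.7 and 141.4 CPM. *Slc43a3* had 13.3, 54.8, 64.9, 65.7 and 48.96 CPM and was called higher, although it is now known as a carrier of purine bases and is in this class by family number only. Lower in GO1 beside *Slc6a9* were 3 members of family 38, *Slc38a10* (27.7 and 4.49 CPM), *Slc38a7* (26.5 and 9.16 CPM) and *Slc38a8* (29.1 and 11.5 CPM). *Slc38a9*, an arginine sensor of the lysosome, had 36.3 and 66.4 CPM. *Slc38a3*, the alanine carrier that granulosa cells are known to express, had at most 0.0400 CPM, and *Slc38a2* 3.06 CPM in NGO and 0.299 in GO1.

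For the uptake of fuels, *Slc2a1* (GLUT1; chromosome 4, 118781316 to 118809935, plus strand) had 33.3, 59.3, 50.4, 65.1 and 76.7 CPM. It was called higher in FGO than in NGO, 2.30-fold, and not in GO1, where the mean over cells was 34.7 CPM against 31.5 in NGO. Its medians over cells were 30.9 CPM in NGO, 27.2 in GO1 and 53.3 in FGO, less than 2-fold apart between NGO and FGO. *Slc2a3*, the high-affinity glucose carrier, had at most 0.794 CPM. *Slc16a1* (MCT1; chromosome 3, 104442591 to 104462385, plus strand), which carries pyruvate and lactate, had 28.1, 16.6, 11.01, 10.2 and 7.06 CPM, lower in each stage than in the one before, and was 3.98-fold lower in FGO than in NGO. *Slc16a7*, the other monocarboxylate carrier of high affinity, had at most 1.12 CPM. The chaperone *Bsg*, which brings monocarboxylate carriers to the cell surface, had 539, 121.3, 142.8, 146.6 and 223 CPM and was called lower in GO1, and the mitochondrial pyruvate carrier subunits *Mpc1*, with 110.7 and 175.4 CPM in NGO and GO1, and *Mpc2*, with 169.7 and 112.4 CPM, were not called.

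The 6 sugar carriers summed to 666, 653, 485, 544 and 721 CPM, of which *Slc45a3* (chromosome 1, 133867186 to 133879540, plus strand), a proton-coupled sugar carrier, made up nearly all with 579, 571, 419, 458 and 617 CPM. In the sums *Slc45a3* had more UMIs than any other member in every stage, as counts of molecules that were not divided by transcript length. Single cells ranged widely, from 185.5 over a median of 469 to 1112 CPM in NGO and from 56.5 over 169.5 to 1559 in FGO, so the stages overlapped. By the median over cells *Slc45a3* led in no stage. In NGO *Slc25a5* had a median of 532 CPM. The GO1 median was 280 CPM, against 420 for *Slc39a10*, and in FGO *Slc25a48* had 264. The direction of the class from NGO to GO1, a ratio of sums of 0.980, turned with the setting, between 0.649 and 1.25. The 3 members called lower in GO1 belong to family 5, *Slc5a3*, a carrier of inositol, *Slc5a6*, a carrier of biotin and pantothenate, and *Slc5a10*. *Slc5a3* overlaps *Mrps6* on the same strand. The class of monocarboxylate carriers had 3 members, of which *Slc16a10* is there by family number only. *Slc16a1*, *Slc16a10* (26.8 to 34.5 CPM over the 5 stages) and *Slc16a13* (23.6 to 33.4 CPM) had 0 calls in GO1. Their sum was 78.9 CPM in NGO and 78.3 in GO1. Their ratio of sums, 0.993, ranged from 0.567 to 1.14 over the alternatives. Without the deepest cells and in thinned cells 1 of them was called lower.

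**Figure D5:**
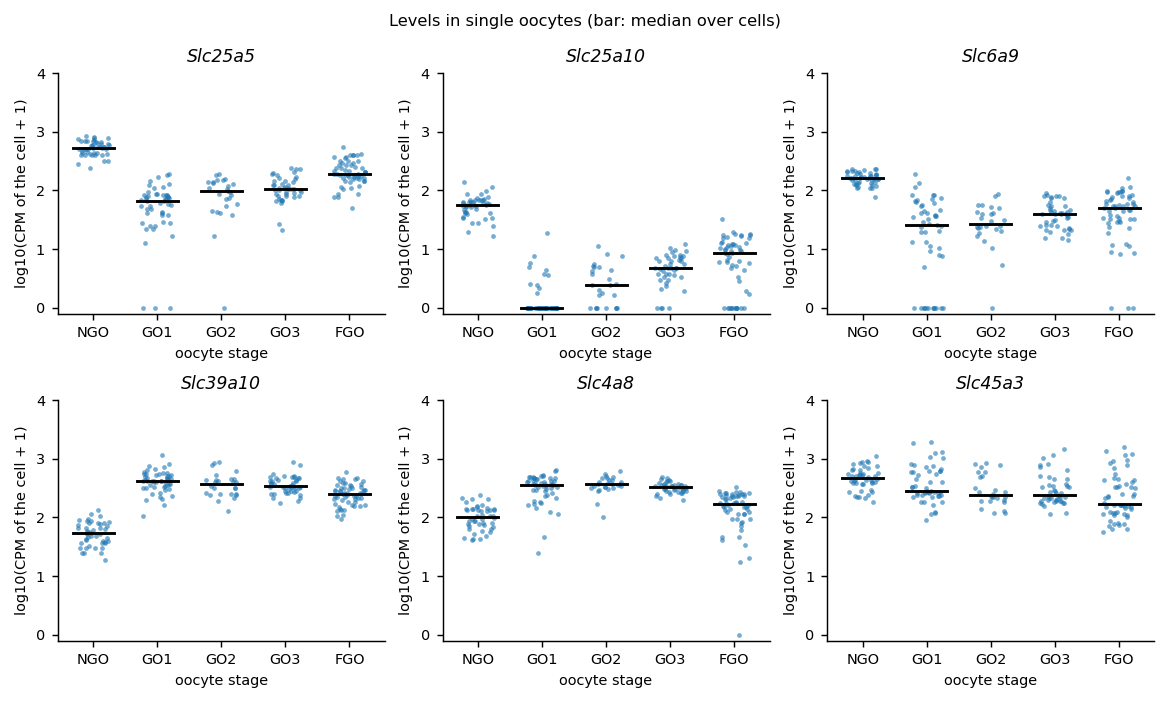
CPM of each oocyte, as log10(CPM + 1), in the 5 stages for 6 members; each point is 1 cell and the bar is the median over the cells of a stage. For *Slc25a5* the NGO cells (241 to 859 CPM) lie above all GO1 cells (0 to 192.2 CPM), while for *Slc45a3* the stages overlap.

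Carriers of nucleosides and of nucleotide sugars, the donors for glycan synthesis in the Golgi, summed to 614, 503, 503, 565 and 591 CPM over 15 members. In GO1 5 were called lower and 1, *Slc35a5* (4.48 and 14.8 CPM), higher. The ratio of sums, 0.819, stayed below 1 in every alternative, between 0.457 and 0.915. Both cell surface nucleoside carriers among the members were lower, *Slc28a3* (15.2 and 4.11 CPM) and *Slc29a2* (18.6 and 2.95 CPM). The 2 Golgi carriers of the sulfate donor PAPS differed. *Slc35b2* (chromosome 17, 45700909 to 45704619, plus strand) had 58.5, 16.7, 16.4, 34.6 and 64.4 CPM, 3.49-fold lower in GO1 (3.14 to 3.89) and back at its NGO level in FGO. *Slc35b3* (chromosome 13, 39024009 to 39052744, minus strand) had levels of 36.03, 66.7, 73.9, 75.4 and 72.7 CPM and was 2.02-fold higher in FGO than in NGO. *Slc35c2* had 78.7, 22.6, 22.6, 24.5 and 30.6 CPM and *Slc35f5* 33.02 and 5.16 CPM in NGO and GO1. *Slc35a4* had 98.9 and 147.6 CPM in the sums and 95.4 and 63.2 CPM as the mean over cells, a reversal of direction without a call in the sums.

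In the last class, 14 carriers of vitamins, lipids, organic ions and others, 5 were higher and 5 lower in GO1, or 6 and 3 with TMM factors and 3 and 7 as the mean over cells, and the sum was 618, 537, 404, 400 and 412 CPM. Carriers of single vitamins went separate ways. While *Slc23a2* was higher in GO1, *Slc19a1* (chromosome 10, 76494986 to 76523747, plus strand), the reduced folate carrier, had 25.1, 9.57, 9.17, 9.37 and 14.99 CPM and was 2.62-fold lower (2.26 to 3.04). It overlaps *Col18a1* on the other strand. The riboflavin carrier *Slc52a2* had 59.4, 29.7, 30.1, 31.1 and 34.97 CPM, 2.002-fold lower and at the limit. *Slc23a3* (chromosome 1, 75122117 to 75130464, minus strand), a relative of the vitamin C carriers with no settled substrate, had 271, 179.9, 117.2, 87.7 and 107.2 CPM and was called lower in FGO than in NGO (2.53-fold), without a call in GO1. *Slc44a2*, a choline carrier-like protein, had 78.5 to 110.7 CPM. *Slc17a5*, which exports sialic acid from lysosomes, and the heme carrier *Slc48a1*, with 29.5 and 13.6 CPM, were lower in GO1, and *Slc22a23* (2.46 and 15.5 CPM) and *Slc44a4* (4.96 and 14.5 CPM) were higher. The 4 symbols that are not carriers had 0 calls, and *Slc4a1ap* had 147.2, 99.4, 88.2, 74.2 and 78.6 CPM.

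After GO1 the levels of most members changed little from stage to stage. From GO1 to GO2, 0 members were called higher, against 0.0923% of all genes, and 3 lower (2.44%, against 2.57% of all genes), *Slc18a2*, which loads monoamines into vesicles, from 10.4 to 4.28 CPM (2.42-fold, 1.93 to 3.05), *Slc12a2* from 14.8 to 6.57 (2.26-fold, 1.88 to 2.73) and *Slc12a5* from 10.2 to 5.005 (2.05-fold, 1.65 to 2.55). Without the 10 deepest cells of each stage 16 were higher and 2 lower. The mean over cells gave 3 and 7, thinned cells 10 and 12, and 26 cells per stage 0 and 14. Of the 3 falls named, 3 were called again with 26 cells per stage and 2 without the deepest cells. As the mean over cells 2 were called again, and in thinned cells 1. From GO2 to GO3 3 (2.44%, against 2.83%) were called higher, *Slc39a1* (4.51-fold, 3.62 to 5.68), *Slc12a2* (2.20-fold, 1.86 to 2.62) and *Slc35b2* (2.11-fold, 1.90 to 2.36), and 1 (0.813%, against 0.853%) lower, *Slc9b1* (2.05-fold, 1.93 to 2.19). DESeq2 size factors left 1 and 1. From GO3 to FGO 2 (1.63%, against 2.12%) were higher, *Slc17a5* from 13.5 to 30.6 CPM (2.27-fold, 2.08 to 2.48) and *Slc38a7* from 6.58 to 13.3 (2.02-fold, 1.78 to 2.30), and 3 (2.44%, against 3.11%) lower. These were *Slc9b1* from 37.2 to 8.85 CPM (4.20-fold, 3.82 to 4.63), *Slc25a13* from 30.4 to 8.10 (3.75-fold, 3.39 to 4.15) and *Slc41a2* from 24.1 to 11.7 (2.06-fold, 1.88 to 2.26). TMM factors gave 1 and 3, and the mean over cells 2 and 7. Of the 2 members named as higher, 1 was called again as the mean over cells. Medians over cells in GO3 and FGO were 13.8 and 38.7 CPM for *Slc17a5*, and 4.48 and 5.56 CPM for *Slc38a7*. All 3 shares of called members were close to those of all genes.

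Between the ends of growth, 13 members (10.6%, against 10.6% of all genes) were higher in FGO than in NGO and 24 (19.5%, against 15.02%) lower. As the mean over cells it was 8 and 35, without the deepest cells 11 and 36, and in thinned cells 8 and 30. The comparisons of NGO with GO1 and with FGO share the NGO cells. The largest ratios of FGO to NGO among those called higher were 13.7 for *Slc12a8*, 10.6 for *Slc4a3*, 4.35 for *Slc39a10*, 3.67 for *Slc43a3* and 3.49 for *Slc23a2*, beside ratios of GO1 to NGO of 32.1, 25.9, 6.50, 4.11 and 8.92. *Slc2a1*, *Slc35b3*, *Slc16a1* and *Slc23a3* were called in FGO and not in GO1. The largest falls were those of *Slc25a10* (5.45-fold), *Slc27a1* (5.24-fold), *Slc16a1* (3.98-fold), *Slc35f5* (3.97-fold) and *Slc25a39* (3.69-fold).

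Between GO1 and FGO directly, a comparison added after the data were seen, 6 members (4.88%, against 7.24% of all genes) were called higher in FGO and 14 (11.4%, against 8.20%) lower. The split depended on the weight of deep cells, with 19 higher and 16 lower as the mean over cells, 33 and 14 without the 10 deepest cells and 25 and 15 in thinned cells. The 6 were *Slc39a1* (4.35-fold, 3.62 to 5.26), *Slc35b2* (3.84-fold, 3.49 to 4.25), *Slc30a6* (3.20-fold), *Slc26a5* (2.62-fold), *Slc17a5* (2.32-fold) and *Slc38a10* (2.26-fold), which act in the Golgi, lysosome or at the cell surface. Among those lower in FGO were *Slc6a15* (15.7-fold, 12.5 to 20.05), *Slc9b1* (11.97-fold, 10.9 to 13.1), *Slc10a6*, a carrier of sulfated steroids (8.24-fold, 6.42 to 10.7), *Slc25a13* (4.16-fold, 3.73 to 4.64) and, by 2.91-fold or less, *Slc18a2*, *Slc23a2*, *Slc7a11*, *Slc4a3*, *Slc16a1*, *Slc12a8*, *Slc12a5*, *Slc7a1* and *Slc22a23*. By contrast *Slc6a20a*, with 55.6 CPM in GO1 and 68.3 in FGO, and *Slc39a10*, with 375 and 251 CPM, were within 2-fold.

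Other transporter genes were counted beside the carriers. Among all genes that reached 10 CPM, 20.3% were called higher in GO1 and 25.3% lower, and no list was tested against these shares. Of 50 genes with *Abc* symbols 20 reached 10 CPM, with 4 higher and 6 lower in GO1. Among the 20 were *Abce1*, *Abcf1*, *Abcf2* and *Abcf3*, which belong to the ABC family but are not membrane transporters. *Abce1*, with 30.1 CPM in NGO and 9.49 in GO1, was among those called lower. Of 26 genes of the vacuolar proton pump, which acidifies organelles, 17 reached it, with 0 higher and 5 lower. For the 25 *Mfsd* genes these counts were 10, 2 and 2, for the 15 *Slco* genes 2, 1 and 0, and for the 7 sodium-potassium ATPase genes 3, 1 and 1. Of 4 genes for the mitochondrial pyruvate carrier and the chaperones of monocarboxylate carriers all 4 reached it, with 0 higher and 1 lower. Of 26 carriers with a known part in oocyte transport 17 were members, of which 5 were higher and 5 lower in GO1, with a median log2 ratio of -0.11.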

How the data were processed

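Single-cell RNA-seq libraries of mouse oocytes were made by the authors, who sorted reads by cell barcode, mapped these with Tophat to the mm9 transcriptome, collapsed duplicates by UMI and filtered cells. The deposited values are raw UMI counts, with no normalization, for 23201 genes and 223 cells from 4 libraries. Counts of a stage were summed over its cells and divided by the stage total (CPM), and a stage was 1 sample, without tests or p-values. Intervals are exact, Poisson for a level and from the binomial split of both counts for a ratio. Total UMIs per stage were 25198132 (NGO), 26752883 (GO1), 24976634 (GO2), 49822036 (GO3) and 64311908 (FGO).

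The members, classes and gene lists were chosen with earlier results of these data known. Genes were named by rule: the 10 members with the highest CPM, the 8 largest rises and 8 largest falls from NGO to GO1, the 3 largest of each later step, the 3 highest of each class, a list of carriers known in oocytes, the genes next to the 10 CPM limit and paralogs set beside these. Other members named in the text were chosen after their values were seen. Classes follow the family number, so a member such as *Slc6a4* (serotonin) or *Slc25a17* (peroxisomes) is in its family's class.

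Alternatives were TMM factors (edgeR 4.0.16) and size factors (DESeq2 1.42.0), both used for scaling only, the mean over cells, sums that left out the 10 deepest cells per stage, 26 cells per stage, cells thinned to 20000 UMIs, and other limits. The size rule was run on simulated stage sums with counting error only, with changes larger than 2-fold in genes above 10 CPM. Calls near the limits and the spread between oocytes were not simulated. Positions are from GENCODE vM1 (NCBIM37), and *Slc9b1*, *Slc25a51*, *Slc35f6*, *Slc38a9* and *Slc52a2* had no single record there. Promoters are RefSeq windows on GRCm38.p6. Whether the library of a cell, the strand or reads matching several genes entered the counting is not given in the sources used here. R 4.3.3 and Python 3.11.15 were used, with matplotlib 3.10.9, scipy 1.17.1 and pandas 2.3.3. The iscCOOL-seq samples of the series were not analysed here. Values of 2 members are not reported here.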

Additional observations from a re-analysis of the deposited data

How the results depend on the processing

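No paired analysis was possible because a stage was 1 pooled sample and no test was made. Of the 52 members named by rule, 34 were called from NGO to GO1, and none of their 199 log2 ratios under alternative scalings or weights of cells changed direction. Of 81 counts of called members under the alternatives, 41 were within 1.5 times the reported count. The median log2 ratio of the members from NGO to GO1, -0.22 in the sums, was -0.06 with TMM factors, -0.12 with DESeq2 size factors, -0.24 with 26 cells per stage, -0.65 as the mean over cells, -0.71 in thinned cells and -0.92 without the 10 deepest cells. The number of members stayed within 1.5 times that reported at limits of 5 and 20 CPM, with 87 at the latter, and from the mean over cells or thinned cells. The summed CPM of the members ranged over the alternatives from 6255 to 6964 in NGO, 4850 to 6583 in GO1, 5250 to 6541 in GO2, 5495 to 6133 in GO3 and 5201 to 6174 in FGO.

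The counts of changed members reported are 3 for GO2 against GO1, 4 for GO3 against GO2 and 5 for FGO against GO3, with 24 higher and 42 lower in GO1 than in NGO, 13 and 24 in FGO than in NGO, and 6 and 14 in FGO than in GO1. A limit of 1.5-fold gave 19, 9 and 19 for the 3 steps, 22 higher and 48 lower in FGO than in NGO, and 20 higher in FGO than in GO1. At least 50 CPM in the higher stage gave 0, 1 and 0, then 9 and 11, 5 and 9, and 1 and 5. With no filter on low counts, over all 376 rows, these were 46, 65 and 73, then 78 and 100, 47 and 75, and 47 and 65. In thinned cells the 3 steps had 22, 17 and 23, with 8 higher in FGO than in NGO and 25 higher in FGO than in GO1. The mean over cells gave 10 for GO2 against GO1, 9 for FGO against GO3, 8 higher in FGO than in NGO and 19 higher in FGO than in GO1. Without the 10 deepest cells these were 18 for GO2 against GO1, 7 for GO3 against GO2 and 33 higher in FGO than in GO1. With 26 cells per stage they were 14 for GO2 against GO1 and 10 for FGO against GO3, and with DESeq2 size factors 1 for GO2 against GO1 and 2 for GO3 against GO2. Fewer genes pass a higher limit and more a lower one by construction, and for the other settings the cause was not tested. Stage totals of 24976634 to 64311908 UMIs limit the precision of a level by counting alone to the intervals given with it.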
